A study of Rattus norvegicus with 38 samples.

Results

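Livers of rats fed Monuron were compared with livers of rats on control diet, over every miRNA that the arrays detected in all animals of either diet. By this rule 97 miRNAs were chosen, and 29 others that were tested for the sake of the other diets, of 350 on the array, fall outside it. Of the 97, 83 were detected on all 9 arrays, 6 on all Monuron arrays but not all control arrays, and 8 on all control arrays but not all Monuron arrays. All 8 of the last kind were missing on Monuron replicate 3 alone, the array with the fewest detected miRNAs, so results are given with and without it.

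A microRNA (miRNA) is a short RNA that guides a silencing complex to messenger RNAs, mostly through its seed, bases 2 to 8 from the 5′ end. miRNAs with one seed form a family and share many predicted targets, and miRNAs transcribed together form a cluster. In liver, miR-122 is the abundant miRNA of hepatocytes, and miR-34a is transcribed under the tumour suppressor p53 and represses cell cycle and survival genes. Monuron is a phenylurea herbicide that blocks photosynthetic electron transport in plants, and long feeding with it is known to cause kidney and liver tumours in male rats of this strain.

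All animals were male Fischer (F344) rats obtained at 8 weeks of age and fed powdered diet for 90 days, with total RNA of 1 liver on each array. The diets were Monuron at 1500 ppm (4 rats), Diethylthiourea at 2500 ppm (4), Benzophenone at 1250 ppm (5), Phenobarbital at 1000 ppm (3), Diethylhexylphthalate at 12000 ppm (4), Chlorendic Acid at 1250 ppm (4), Methapyrilene HCl at 250 ppm (4), 2-acetylaminofluorene at 40 ppm (5) and control feed without a chemical (5). Each dose was carcinogenic or the highest tolerated, per the labels, and which animals shared a cage was not stated, so p-values measure the spread between these animals. In whole liver, fewer cells of a type and less RNA per cell cannot be told apart.

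The mature sequences of the miRNAs on which the results turn are shown first, with the seed in capitals. They come from RefSeq on the rat assembly GRCr8, whose table held 78 of the 97.
miR-34a-5p: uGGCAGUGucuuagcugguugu
miR-375-3p: uUUGUUCGuucggcucgcguga
miR-96-5p: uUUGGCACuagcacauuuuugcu
miR-103-3p: aGCAGCAUuguacagggcuauga
miR-107-3p: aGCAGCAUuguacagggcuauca
miR-15b-5p: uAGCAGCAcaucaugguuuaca
miR-25-3p: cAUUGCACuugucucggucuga
miR-100-5p: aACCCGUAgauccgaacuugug
miR-99b-5p: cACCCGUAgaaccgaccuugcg
The first 4 were called higher after Monuron. miR-107 is shown beside miR-103, which it resembles, miR-15b and miR-25 because their arrays were separated by diet, and miR-100 and miR-99b as relatives of miR-99a, which was called lower. miR-34a-5p lies at chr5:165815971-165815992 on the plus strand in the gene Mir34a, miR-375-3p at chr9:83906591-83906612 on the minus strand in Mir375, and miR-96-5p at chr4:59755901-59755923 on the minus strand in Mir96. miR-103-3p lies at chr3:138963278-138963300 on the plus strand in Mir103a2. It differs from miR-107-3p at 1 of 23 bases, outside the seed, so part of the signal of either probe could come from the other miRNA, which was not tested. miR-15b-5p carries as its seed AGCAGCA, which is also bases 1 to 7 of miR-103-3p. miR-100-5p is a seed relative of miR-99b-5p, with which it differs at 4 of 22 bases.

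Each level is a log2 value relative to the 75th percentile of its array, so a level of 0 equals that percentile and 1 unit is a doubling. Signals under the lowest reliable value were set to a floor at a level of -5.50, which is 16.7 signal units on the median array. The arrays detected 90 miRNAs in Monuron replicate 3 and up to 134 in the other Monuron livers (mean 119.5, n = 4), against 98 to 128 in control livers (mean 115.2, n = 5). The ranges overlapped, and the mean difference of 4.3 miRNAs did not pass (exact permutation test, 2-sided, p = 0.730, and p = 0.196 without replicate 3). Arrays of 1 diet correlated at 0.957 to 0.993 over the tested miRNAs for Monuron and at 0.958 to 0.996 for control. The hepatocyte miRNA miR-122 was detected on every array, at 6.41 ± 0.13 in Monuron livers and 6.40 ± 0.24 in control livers (SD, n = 4 and 5), a difference of 0.012 ± 0.10 (SE).

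Monuron livers differed from control livers in 5 miRNAs, 4 of them higher and 1 lower. miR-34a was 4.19-fold higher, miR-96 1.73-fold, miR-375 1.68-fold (with 3 of 5 control livers set to the floor, which bears on its size) and miR-103 1.26-fold, while miR-99a was at 0.715 of its control level. These 5 are 3.97% of the miRNAs tested (limma with Benjamini-Hochberg adjusted p under 0.05), with 3.17% higher and 0.794% lower, and all 5 are among the 97. At an unadjusted p under 0.05 there were 19, or 15.1%. The calls were 3 higher and 3 lower with quantile normalization, 4 and 3 with normexp background correction, and 3 and 2 with scaling over all probes and likewise in the authors' deposited table. The filter let miR-34a, miR-375 and miR-96 in through the Monuron arrays alone, so some difference in their detection was fixed by the choice. They were detected on 4, 2 and 3 of the 5 control arrays.

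miR-34a had levels of -2.95, -2.29, -3.95 and -2.76 in Monuron replicates 1 to 4, against -5.26, -5.50, -4.53, -4.96 and -5.02 in control replicates 1 to 5. Every Monuron liver lay above every control liver, replicate 3 was the lowest Monuron liver, and control replicate 2 was at the floor. The difference was 2.07 ± 0.22 (SE; 95% interval 1.63 to 2.51; limma adjusted p = 7.88e-09). A second probe for miR-34a gave 2.00. Without replicate 3 the difference was 2.39 (limma adjusted p = 1.15e-11), or 5.23-fold.

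miR-375, a miRNA of pancreatic islets known to limit insulin release and found also in epithelial cells, had levels of -4.66, -4.97, -4.52 and -4.51 in Monuron livers, against -5.50, -5.50, -5.50, -5.33 and -5.25 in control livers. The groups were apart, with 3 control livers at the floor and replicate 2 the lowest Monuron liver. The difference was 0.75 ± 0.10 (limma adjusted p = 6.04e-07), and 0.70 without replicate 3 (limma adjusted p = 1.36e-05). The second miR-375 probe was at the floor on all 9 arrays, so the result rests on 1 probe near the floor.

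miR-96 is transcribed with miR-182 and miR-183 in a cluster known from sensory cells and other epithelia. Its levels were -4.11, -3.97, -4.49 and -4.16 in Monuron livers, against -5.17, -5.07, -4.66, -4.97 and -5.01 in control livers. The lowest Monuron liver, replicate 3, was just above the highest control liver, replicate 3 of that diet. The difference was 0.79 ± 0.16 (limma adjusted p = 6.27e-04), the second probe also gave 0.79, and without Monuron replicate 3 the difference was 0.90 (limma adjusted p = 2.77e-04). Of the cluster partners, miR-183 was at the floor on all 9 arrays. miR-182 was detected in 3 of 4 Monuron livers and in no control liver, so that its difference of 0.30 is set by the floor and is a lower bound (limma adjusted p = 0.167). Without replicate 3 it was 0.40 (limma adjusted p = 0.0747). It passed with a lower floor, at 0.60 (limma adjusted p = 0.00516), and in the authors' deposited table, at 1.71 (limma adjusted p = 0.00469). miR-182 is outside the 97, because replicate 3 did not detect it.

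miR-103, which in mouse liver is known to lower insulin sensitivity, had levels of -1.69, -1.60, -1.63 and -1.64 in Monuron livers, against -2.07, -2.15, -1.84, -1.92 and -1.87 in control livers. The Monuron livers lay within a narrow range above all control livers. The difference was 0.33 ± 0.09 (limma adjusted p = 0.0311), and the second probe gave 0.28. Without replicate 3 the difference was 0.33 and missed the threshold (limma adjusted p = 0.0752), on 3 arrays and 131 tested miRNAs. Its near-identical relative miR-107 had levels of -0.81, -0.82, -0.71 and -0.86 in Monuron livers, against -1.40, -0.92, -0.89, -0.85 and -0.85 in control livers, which overlap. Its difference was 0.18 (limma adjusted p = 0.410).

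miR-99a, of a family known to repress the growth kinase mTOR, was the 1 miRNA called lower. Its levels were 0.30, 0.11, -0.29 and 0.03 in Monuron livers, against 0.35, 0.55, 0.57, 0.52 and 0.59 in control livers. The highest Monuron liver, replicate 1, was just under the lowest control liver, replicate 1 of that diet, and Monuron replicate 3 was the lowest of all. The difference was -0.48 ± 0.11 (limma adjusted p = 0.00526), and the second probe gave -0.36. Without replicate 3 it was -0.37 and missed the threshold (limma adjusted p = 0.0747).

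**Figure D1:**
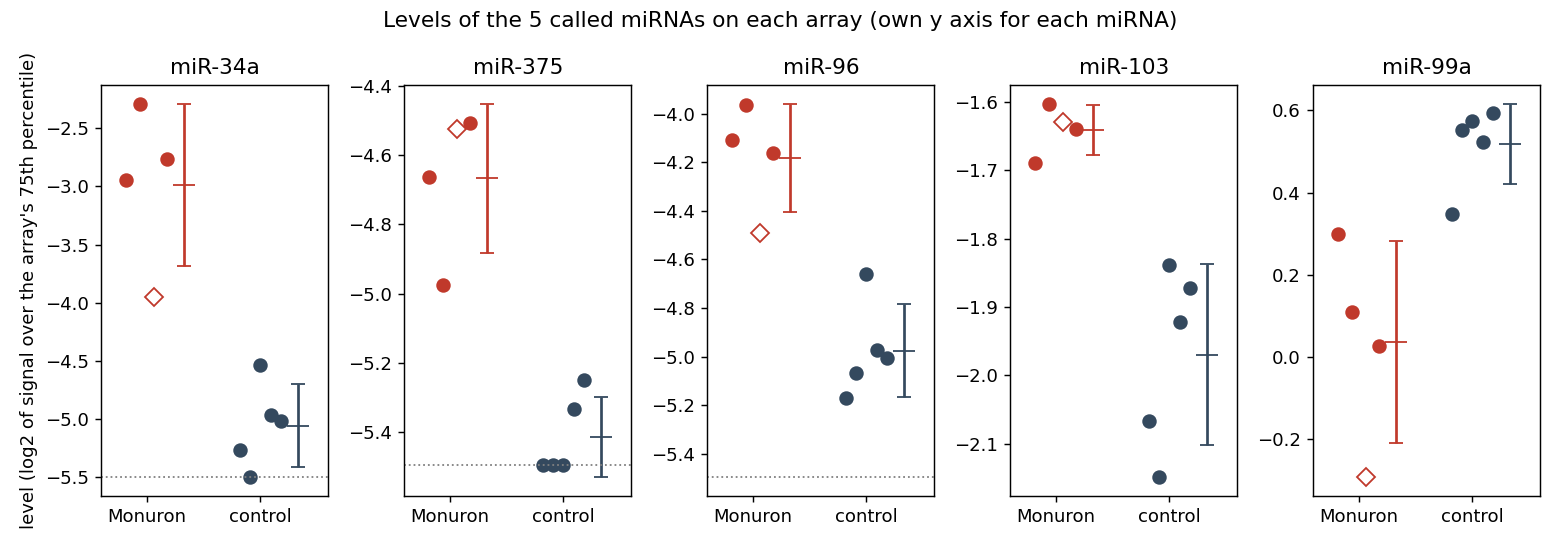
Levels of miR-34a, miR-375, miR-96, miR-103 and miR-99a (log2 relative to the array's 75th percentile) on 4 Monuron arrays (red) and 5 control arrays (dark), 1 panel and y axis per miRNA. The open diamond is Monuron replicate 3, bars are mean ± SD, and the dotted line is the floor. The diets do not overlap in any of the 5 panels, and they come closest for miR-99a, at 0.30 against 0.35.

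Monuron and control arrays were never on 1 slide: the Monuron arrays lay on slides 2, 5 and 6 and the control arrays on slides 1, 3 and 4, so no difference within a slide can be had. With slide as a fixed block, linked through the other diets, 3 miRNAs were called. The differences were 2.06 for miR-34a (limma adjusted p = 4.66e-06), 0.87 for miR-375 (1.11e-05) and 0.93 for miR-96 (0.00103). miR-99a had -0.44 (limma adjusted p = 0.140) and miR-103 0.34 (0.170) in that fit.

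Without Monuron replicate 3 the rule takes 121 miRNAs of 131 tested, and 3 were called, or 2.29% of those tested: miR-34a, miR-375 and miR-96. Replicate 3 was the lowest of the Monuron livers for 50 of the 97 miRNAs and the highest for 29. It lay over 1 unit from the mean of the other Monuron livers for 11 miRNAs, against 0, 3 and 1 for replicates 1, 2 and 4. Leaving it out turned the sign of the difference for 21 of the 97 miRNAs, none of them called, and moved 15 by over 0.2. The largest shift, 0.72, was that of miR-324-3p, whose levels were -1.91, -1.08, -4.32 and -1.30 in Monuron livers, against -2.48, -0.76, -1.06, -1.50 and -1.94 in control livers. Its difference was -0.61 with all arrays and 0.12 without replicate 3.

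miR-193, listed among hepatocyte miRNAs, had the lowest difference of the 97 but was not called. Its levels were -3.16, -2.79, -5.50 and -3.33 in Monuron livers, against -2.36, -2.04, -2.82, -3.15 and -2.33 in control livers. Replicate 3 was at the floor, and replicate 4 and, narrowly, replicate 1 were also under every control liver. Replicate 2 lay among the control livers. The difference was -1.15 ± 0.38 (limma adjusted p = 0.0996), and -0.55 without replicate 3 (limma adjusted p = 0.561). Both probes of miR-193 gave negative differences, -1.15 and -0.76.

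**Figure D2:**
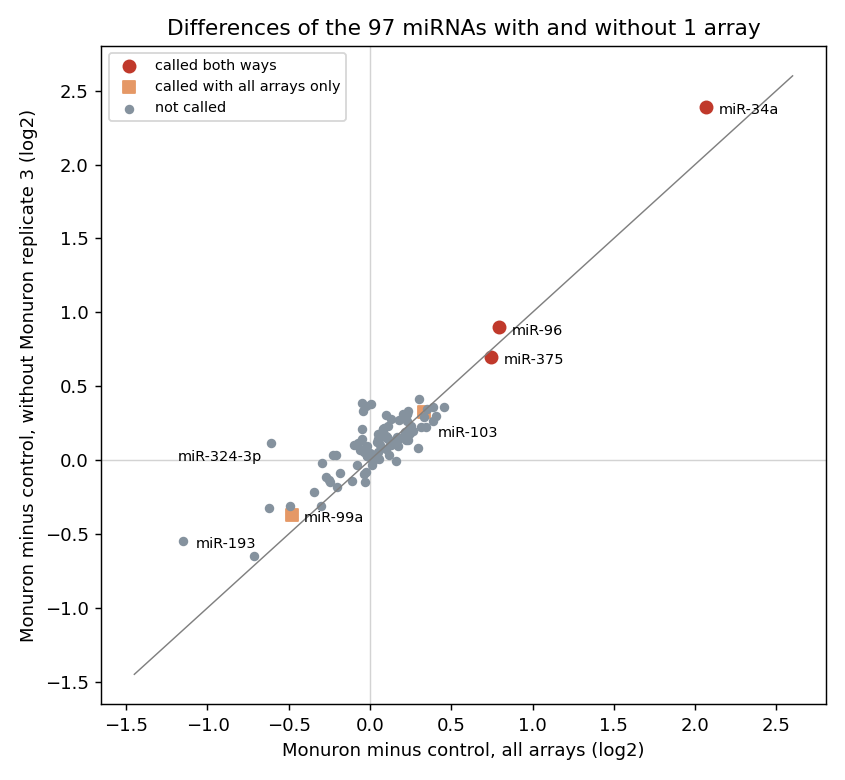
Each point is 1 of the 97 miRNAs, with its Monuron minus control difference (log2) over all arrays on the x axis and without Monuron replicate 3 on the y axis; the diagonal marks equal values. miR-34a, miR-96 and miR-375 (red) were called both ways and miR-103 and miR-99a (squares) with all arrays only, while miR-193 and miR-324-3p lie far above the diagonal.

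Counted by separation alone, the Monuron livers lay all above the control livers for 7 miRNAs and all below for 2, or 7.14% of those tested in either direction (5.56% above and 1.59% below). Besides the 5 called, these were miR-15b, miR-25 and miR-352 above and miR-192 below. Without replicate 3 the count was 11 above and 2 below among the same 97, and 11.5% of the 131 then tested were separated. Among the same miRNAs, leaving out an array can only keep or raise this count, and chance separation is likelier with fewer arrays.

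miR-15b, of the miR-15/16 family known to repress cyclins and BCL2, had levels of -1.58, -1.56, -1.01 and -1.38 in Monuron livers, against -1.99, -1.73, -1.63, -1.64 and -1.66 in control livers. The difference of 0.35 did not pass (limma adjusted p = 0.107), and it was 0.22 without replicate 3, the highest Monuron liver. miR-25, of the cluster with miR-93 and miR-106b in an intron of Mcm7, had -2.21, -2.19, -2.15 and -2.10 in Monuron livers, against -3.24, -2.35, -2.39, -2.23 and -2.34 in control livers. The Monuron livers were close together and control replicate 1 was far below the rest. The difference was 0.35 (limma adjusted p = 0.139), and 0.17 without that control liver.

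miR-352 had levels of -1.22, -1.05, -1.03 and -1.11 in Monuron livers, against -1.91, -1.30, -1.57, -1.25 and -1.41 in control livers, with a difference of 0.38 (limma adjusted p = 0.167) and control replicate 1 again lowest. miR-192, a liver and gut miRNA that p53 can induce, had 1.95, 1.93, 1.83 and 1.83 in Monuron livers, against 2.21, 2.01, 2.17, 1.96 and 2.09 in control livers. All Monuron livers were lower, but by a small margin, and the difference of -0.20 did not pass (limma adjusted p = 0.451). Its second probe gave -0.05.

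**Figure D3:**
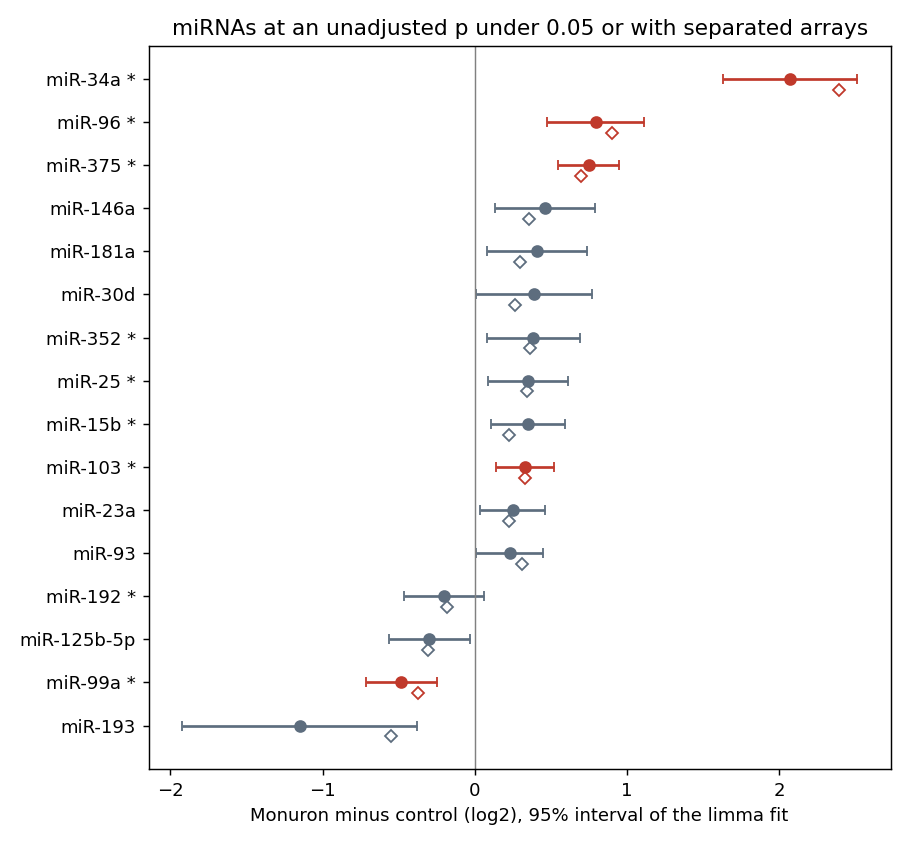
Monuron minus control differences (log2, filled points) with 95% intervals of the limma fit for the 16 of the 97 miRNAs at an unadjusted p under 0.05 or with separated arrays. Red marks the 5 called, stars in the names mark the 9 separated, and open diamonds give the difference without Monuron replicate 3. The 5 called miRNAs include the highest difference, that of miR-34a.

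Most of the 97 miRNAs differed little. For 90 the difference was under 0.5 in size, and for 89 the 95% interval lay within 1 unit of 0, so a change of 1 unit was outside it. For 46 the interval lay within 0.5. These intervals come from the fit without slide, so they do not cover an offset between slides, and levels at the floor narrow them. The median difference was 0.081 over the 97 and 0.070 over all tested, and 0.14 over the 131 tested without replicate 3. miR-21, which rises in injured and tumour tissue, had 2.45, 2.62, 1.92 and 2.22 in Monuron livers, against 2.56, 2.79, 2.95, 2.29 and 2.65 in control livers. These overlap, and the difference of -0.35 did not pass (limma adjusted p = 0.319). It was -0.22 without replicate 3, and the second probe gave 0.03, of the other sign. Just outside the rule, miR-674-3p was detected in 3 Monuron and 3 control livers (difference 0.32) and miR-342-3p in 3 and 4 (0.19). Just inside it, miR-7a and miR-378* were detected in all 4 Monuron livers and 4 control livers, with differences of 0.046 and -0.032.

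In each list of relatives that held a called miRNA, it was the only one called. In the list of the miR-34 family and p53-responsive miRNAs, 6 of 9 were tested and only miR-34a was called, with a median difference of 0.08 against 0.070 over all tested. miR-34b and miR-34c were detected on no array of either diet. miR-192 is described above, miR-194 had a difference of -0.023 and miR-107 of 0.18.

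In the list of miR-99/100, miR-10 and miR-125, some of whose members share clusters, all 7 were tested and only miR-99a was called. The median was -0.017 and the range -0.48 to 0.24. The seed relative miR-100 had levels of -1.76, -1.95, -2.63 and -2.26 in Monuron livers, against -2.18, -2.09, -1.75, -1.64 and -1.71 in control livers, with replicate 3 the lowest and overlap between the diets. Its difference was -0.27, and -0.11 without replicate 3. miR-125b-5p had 0.84, 0.81, 0.88 and 0.86 in Monuron livers, against 1.31, 0.83, 1.22, 1.19 and 1.17 in control livers. Only control replicate 2 fell among the Monuron livers, and the difference of -0.30 did not pass (limma adjusted p = 0.237). miR-99b, detected in 3 Monuron and 2 control livers, had 0.23.

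No member was called in the other lists of relatives. All 8 let-7 miRNAs tested, regulators of growth and differentiation, lay between -0.035 and 0.23, with 6 positive and a median of 0.17. Among miR-17, miR-92a and their cluster relatives, 8 of 9 were tested, from -0.23 to 0.35 (median 0.08). miR-25 was the highest of them, and miR-93 had 0.23, or 0.31 without replicate 3 with all 3 remaining Monuron livers above the control livers. All 5 miRNAs of the miR-23/24/27 clusters were positive, from 0.11 to 0.25 (median 0.17, against 0.070 over all tested). With arrays left out, miR-24 fell as low as -0.0045 and miR-27b as low as -0.074. The 4 of miR-15/16 had a median of -0.0046 with miR-15b at the top and miR-497 at -0.25, and the 5 of miR-30 had 0.049 with miR-30d at 0.39. Without Monuron replicate 3 the medians were 0.21 for miR-17 and its relatives, 0.18 for miR-30 and 0.10 for let-7. The median over all tested was then 0.14, which bears on every list median given without that array. miR-30d was 0.26 without Monuron replicate 3, its highest Monuron liver (-0.84), and 0.17 without control replicate 1, its lowest control liver (-2.50).

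The 3 miRNAs of miR-29, known to repress collagens, had a median of 0.10, or 0.23 without Monuron replicate 3, and the 2 of miR-26 had 0.068. miR-181a, the 1 tested of the miR-181 list, had levels of -4.77, -4.70, -4.11 and -4.18 in Monuron livers, against -5.50, -4.63, -4.64, -4.82 and -4.63 in control livers. Control replicate 1 was at the floor and the other control livers overlapped the Monuron livers, with a difference of 0.40 (limma adjusted p = 0.167), or 0.24 without that liver. miR-221, which represses the cell cycle inhibitor p27, had a difference of -0.25, and miR-222 was at the floor on all 9 arrays. In the miR-200 family, which keeps epithelial identity, 3 of 5 were tested, with differences of 0.11 for miR-200a, 0.31 for miR-200b and 0 for miR-429, at the floor in both diets. The list's median was 0.11, or 0.28 without Monuron replicate 3. The cluster of miR-96 and the pair of miR-103 and miR-107 are described above, with medians of 0.55 and 0.26.

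**Figure D4:**
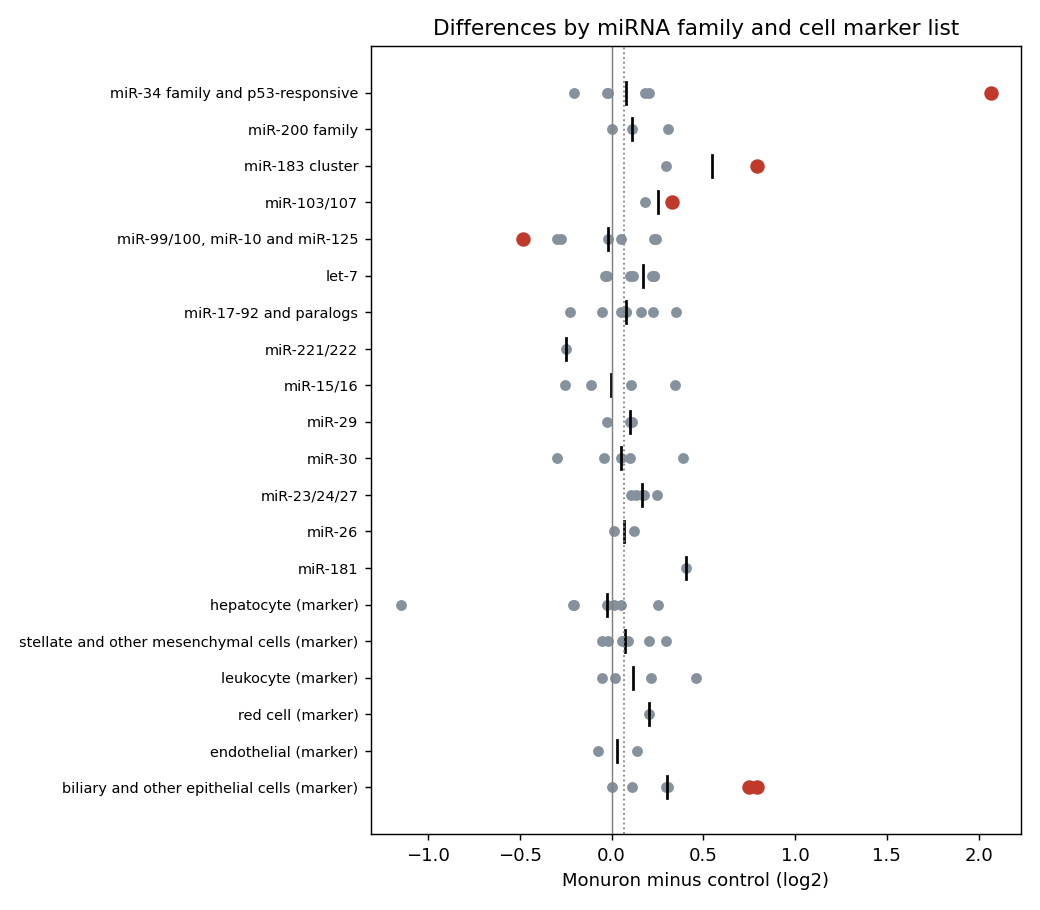
Monuron minus control differences (log2) of the tested miRNAs in each list of relatives and of cell markers, 1 point per miRNA, with red points for the 5 called and a black bar at each list's median. The dotted line is the median over all tested, 0.070. miR-34a lies apart from the other members of its list, and miR-99a is the lowest of its list, next to miR-125b-5p (-0.30) and miR-100 (-0.27).

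miR-375 and miR-96 stand on the list of biliary and other epithelial markers, 6 of 9 of which were tested, with 5 positive, 2 called and a median of 0.30. miR-141, miR-429 and miR-183 of this list were detected on no array of either diet. The list's summed signal, in units of each array's 75th percentile, was 0.261 to 0.345 in Monuron livers and 0.224 to 0.256 in control livers. Without miR-375 and miR-96 themselves the 7 others summed to 0.173 to 0.246 in Monuron livers and 0.172 to 0.199 in control livers, which overlap. Whether more cells of this kind had a part in the result was not tested.

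No other marker list held a called miRNA. The hepatocyte list summed to 83.0 to 101.1 in Monuron livers and 75.3 to 113.9 in control livers, with 7 of 9 tested and a median of -0.023; miR-455 was not detected. The leukocyte list, 4 of 7 tested with a median of 0.12 (0.27 without Monuron replicate 3), summed to 0.858 to 1.03 in Monuron livers, above 0.518 to 0.853 in control livers. That gap came with miR-146a, a miRNA induced by NF-kappaB, whose levels were -0.73, -0.99, -0.51 and -1.02 in Monuron livers, against -2.08, -1.10, -1.05, -1.16 and -0.96 in control livers. Control replicate 1 was far below, control replicate 5 lay among the Monuron livers, and the difference of 0.46 did not pass (limma adjusted p = 0.107). Without control replicate 1 it was 0.26. Without miR-146a the list summed to 0.326 to 0.364 in Monuron livers and 0.281 to 0.372 in control livers. miR-142-5p and miR-146b of this list were not detected.

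The stellate and mesenchymal list, all 6 tested with a median of 0.072, summed to 0.862 to 1.14 in Monuron livers and 0.910 to 1.04 in control livers. Without Monuron replicate 3 its median was 0.18, and the lowest Monuron sum and the highest control sum were both 1.04. The red cell list, with miR-451 tested at 0.20, summed to 0.947 to 1.43 in Monuron livers and 0.837 to 1.15 in control livers. The low end was Monuron replicate 3, without which the Monuron sums were 1.19 to 1.43, all above the control livers. The endothelial pair miR-126 and miR-126* summed to 1.84 to 1.89 in Monuron livers and 1.58 to 1.84 in control livers, with a median of 0.032. Control replicate 1, the only control array on slide 4, was the lowest control liver for 63 of the 97 miRNAs. Without it and Monuron replicate 3 together, a choice made after seeing the data, 4 miRNAs were called, all among the 5.

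Monuron was also set against 3 other diets, where control arrays do not enter the differences but, with all other arrays, add to the estimate of spread. With only the compared diets in the fit, the calls described next fell to 1, 1 and 7. Methapyrilene HCl, an antihistamine that causes rat liver tumours, shares slides 2, 5 and 6 with Monuron. Monuron livers were higher in 2 miRNAs and lower in none, or 1.59% of those tested, both among the 97 (13 at an unadjusted p under 0.05). miR-34a was at -2.99 ± 0.70 in Monuron livers and -4.06 ± 0.20 in Methapyrilene HCl livers (SD, n = 4 each), a difference of 1.07 (limma adjusted p = 0.00296). Within slides it was 0.19 on slide 2, which holds Monuron replicate 3, 0.96 on slide 5 and 1.76 on slide 6.

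miR-375 was detected in all 4 Monuron livers and in no Methapyrilene HCl liver, and was at least 1.78-fold higher, as the Monuron mean of -4.67 over the floor (limma adjusted p = 4.01e-07). Within slides 2, 5 and 6 its differences were 0.97, 0.83 and 0.76, all in 1 direction. miR-96 had a difference of 0.54 that did not pass (limma adjusted p = 0.0966), but passed without Monuron replicate 3 at 0.65 (limma adjusted p = 0.0326). The 95% interval of the difference in miR-99a was -0.28 to 0.21, and in miR-103 0.082 to 0.48, neither of them called (limma adjusted p = 0.988 and 0.148).

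Against Chlorendic Acid, a chlorinated flame retardant, 17 miRNAs differed, or 13.5% of those tested, and 12 of them were among the 97, 8 higher after Monuron and 4 lower (6.35% of those tested were higher and 7.14% lower). miR-96 was at -4.18 ± 0.22 in Monuron livers and -5.44 ± 0.11 in Chlorendic Acid livers, a difference of 1.26 (limma adjusted p = 1.26e-06). Chlorendic Acid replicates 1 and 3 were at the floor, so the size of this difference is limited by the floor. In miR-96 Chlorendic Acid livers were also lower than control livers, by a difference of -0.46 (limma adjusted p = 0.0237). The 1 slide with both diets, slide 6, gave 1.43 for miR-96, with Chlorendic Acid replicate 3. miR-34a was higher by 0.79 (limma adjusted p = 0.0182) and miR-375 by 0.36 (0.0154). miR-17 and miR-20a of 1 cluster were higher after Monuron by 0.66 and 0.70, and miR-203, an epithelial miRNA, by 0.72. miR-505 was lower by a difference of -1.24 and miR-221 by -0.86 (limma adjusted p = 0.00381 and 0.00346). From control livers none of these was called to differ. Those differences were 0.081 for miR-17, 0.079 for miR-20a, 0.29 for miR-505 and -0.25 for miR-221. Without Monuron replicate 3 there were 28 calls against Chlorendic Acid, with all 17 among them, and with slide as a fixed block there were 11. In that fit miR-34a just missed the threshold, and miR-203 also missed it (limma adjusted p = 0.0585).

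Against 2-acetylaminofluorene, an aromatic amine that damages DNA, 20 differed, or 15.9% of those tested, and 16 of them were among the 97, 12 higher after Monuron and 4 lower (10.3% of those tested were higher and 5.56% lower). miR-34a was lower after Monuron, at -2.99 ± 0.70 against 0.04 ± 0.18 in 2-acetylaminofluorene livers (n = 4 and 5), a difference of -3.03 (limma adjusted p = 3.81e-13). Within the shared slides it was -2.94 on slide 5 and -2.57 on slide 6. The differences were 0.95 in miR-96 and 0.83 in miR-375, both higher after Monuron (limma adjusted p = 3.16e-05 and 6.55e-08). miR-375 was at or near the floor in all 2-acetylaminofluorene livers (mean -5.49), so the size of its difference is set by the floor. The let-7 miRNAs let-7a, let-7d and let-7f were higher after Monuron by 0.36, 0.51 and 0.47, and miR-107 and miR-103 by 0.34 and 0.28. Without Monuron replicate 3 there were 16 calls, 13 of them among the 20. let-7d kept its call (limma adjusted p = 0.0373), while let-7a (0.207), let-7f (0.108), miR-107 (0.0945) and miR-103 (0.0756) missed the threshold. With slide as a fixed block let-7a (limma adjusted p = 0.0794) and miR-103 (0.0711) missed it. miR-494 and miR-188 were lower by differences of -2.62 and -1.90 (limma adjusted p = 3.28e-04 and 0.00419). miR-188 was near the floor in Monuron livers (mean -5.31, detected in 3 of 4), which bears on its size. From control livers miR-494 and miR-188 differed by -0.62 and -0.71, neither of them called. With scaling over all probes, 40 were called against 2-acetylaminofluorene, 35 higher and 5 lower. The median difference over all tested was then 0.33, against 0.060 with the main scaling.

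The mean levels on all 9 diets put these values side by side, with control arrays shared by every comparison against control. miR-34a averaged -2.99 with Monuron, -5.06 with Diethylthiourea, -5.33 with Benzophenone, -4.84 with Phenobarbital, -5.18 with Diethylhexylphthalate, -3.77 with Chlorendic Acid, -4.06 with Methapyrilene HCl, 0.04 with 2-acetylaminofluorene and -5.05 in control livers. Monuron came next after 2-acetylaminofluorene, and Diethylthiourea, Benzophenone, Phenobarbital and Diethylhexylphthalate livers overlapped control livers. miR-375 was detected in all livers with Monuron, Diethylhexylphthalate (-4.97) and Chlorendic Acid (-5.03), in 1 of 5 with 2-acetylaminofluorene, in none with the other 4 chemicals and in 2 of 5 control livers. Diethylhexylphthalate and Chlorendic Acid livers were also called higher than control livers in miR-375, by 0.44 and 0.38 (limma adjusted p = 0.00160 and 0.00340). miR-96 was highest with Phenobarbital (-2.96), then Benzophenone (-3.96), Monuron (-4.18) and Diethylhexylphthalate (-4.23). The ranges of the last 3 overlapped. Phenobarbital (2.01), Benzophenone (1.02) and Diethylhexylphthalate (0.75) livers were also called higher than control livers in miR-96 (limma adjusted p up to 0.00108). miR-96 was lowest with Chlorendic Acid (-5.44), under the control mean of -4.98.

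miR-99a averaged 0.035 with Monuron and between 0.069 and 0.50 with the other chemicals, against 0.52 in control livers. It was also called lower than control livers with 2-acetylaminofluorene (-0.44), Benzophenone (-0.43), Chlorendic Acid (-0.36), Diethylhexylphthalate (-0.40) and Methapyrilene HCl (-0.45). Their limma adjusted p ran from 0.00614 to 0.0247. With Diethylthiourea (-0.018) and Phenobarbital (-0.15) it was not called. Its range with Monuron overlapped those of every other chemical but Diethylthiourea. miR-103 averaged -1.64 with Monuron, -1.66 with Diethylhexylphthalate and -1.71 with Benzophenone, which overlap, against -1.97 in control livers. It was also called higher than control livers with Diethylhexylphthalate (0.31, limma adjusted p = 0.0231), but not with Benzophenone (0.26, limma adjusted p = 0.0645).

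**Figure D5:**
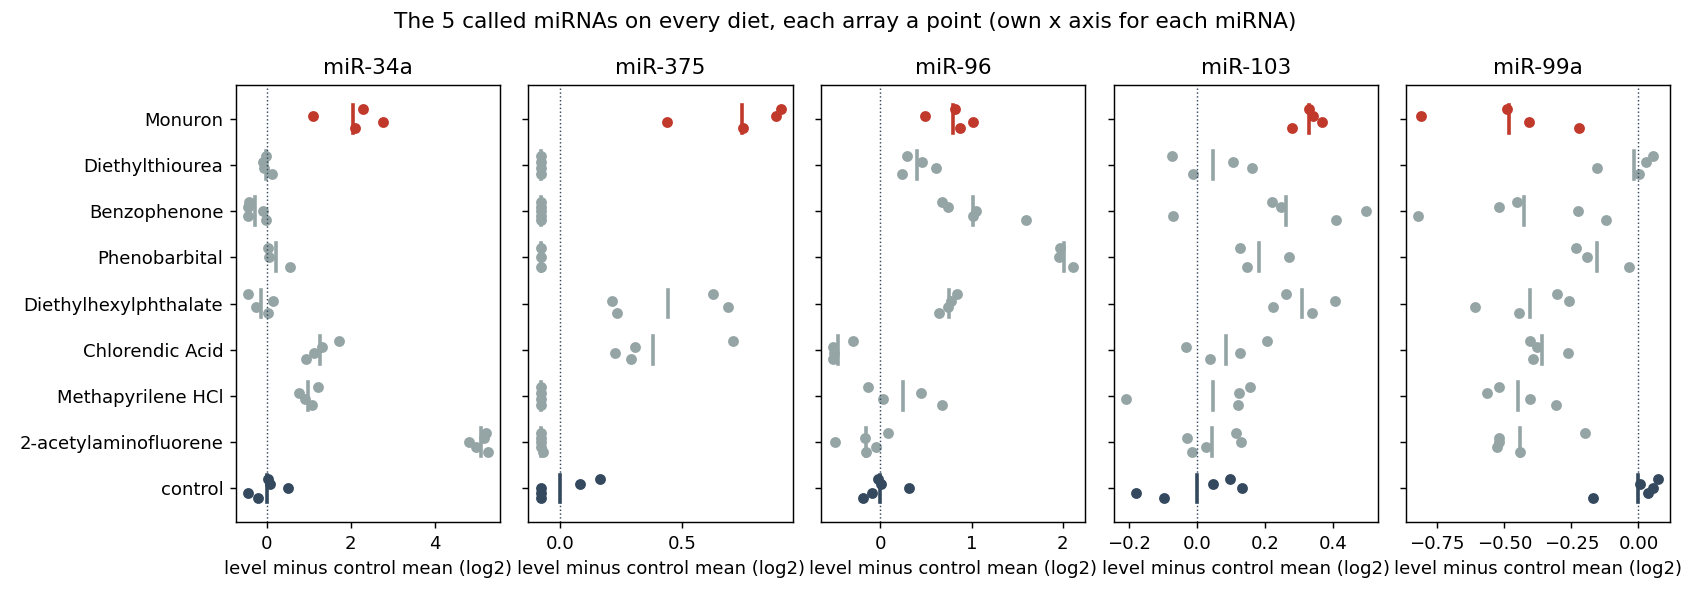
Levels of the 5 called miRNAs on every array, as log2 difference from the control mean (x axis, own scale per miRNA), by diet from Monuron (red, top) to control (dark, bottom); points are arrays and bars are group means. The 2-acetylaminofluorene livers lie to the right of the Monuron livers for miR-34a, and the Phenobarbital livers for miR-96.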

How the data were processed

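Liver total RNA labelled with Cy3 was hybridised to 1-colour Agilent rat miRNA arrays, 1 per animal, and, per the file headers, the scans were read with version 10.5.1.1 of Agilent's Feature Extraction. The deposited scanner files give a background-subtracted spot intensity, which was used here as deposited, with flags (other values, 0 or 1) for spots well above background. The authors' deposited table of log2 values for 167 miRNAs holds, for 99.4% of its 6293 values, the total gene signal less an array constant, with a tolerance of 0.01. The choice of constant was not stated. It was used as an alternative, and its column medians ran from 0.0162 to 0.337.

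Outlier spots (2.17% to 6.41% per array) were left out, no spot was saturated, and spots of a probe were averaged. Signals were divided by each array's 75th percentile (424 to 1086) over the 137 of 938 probes detected on all 38 arrays, floored at the 5th percentile of detected values and put on the log2 scale. A miRNA took its brightest probe, and was detected where over 50% of that probe's spots were well above background. A miRNA was tested if some diet had it detected in all its arrays, and the fit was made with limma 3.58.1 (lmFit and eBayes, R 4.3.3) over all 38 arrays, with Benjamini-Hochberg adjusted p under 0.05 as the threshold. The number of arrays limits the precision. The fit was tested on simulated data. Alternatives covered arrays left out, scaling, background, normalization, probe summary, floor, filter, slide, replicate number and the arrays in the fit.

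The text names miRNAs called with or without Monuron replicate 3, up to 10 on either side with separated arrays, a fixed list of names, up to 4 per list with the smallest p, and any detected on all arrays of 1 diet and none of the other. The others were picked after their values were seen: miR-324-3p, miR-674-3p, miR-342-3p, miR-7a, miR-378*, miR-203, miR-494, miR-505 and miR-188. The members and lists were chosen with earlier results of these data known.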

Additional observations from a re-analysis of the deposited data

Results flagged for a closer look

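Of 116 sets of arrays checked, 16 held an array far from the others by Dixon's test at its 95% critical value. Each set was 1 miRNA in 1 diet, apart from the number of detected miRNAs in Monuron livers. Chance gives about 1 in 20. Monuron replicate 3 was high for miR-30d, at a level of -0.84. Control replicate 1 was low for 13 miRNAs, with levels in parentheses: miR-107 (-1.40), miR-146a (-2.08), miR-15b (-1.99), miR-181a (-5.50), miR-199a-5p (-4.49), miR-24 (-0.91), miR-25 (-3.24), miR-27b (-1.17), miR-29a (1.84), miR-29c (-0.26), miR-30a (-1.90), miR-497 (-2.21) and miR-99a (0.35). Control replicate 2 was low for let-7f (2.49) and miR-365 (-0.78). Without control replicate 1 the difference in miR-99a was -0.53, still called (limma).

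Monuron also differed from another diet by a test of the difference itself (limma) in named miRNAs. Values are Monuron minus the other diet on the log2 scale. Against Methapyrilene HCl, miR-34a (1.07) and miR-375 (0.83) were higher. Against Chlorendic Acid, miR-34a (0.79), miR-375 (0.36), miR-497 (0.48) and miR-96 (1.26) were higher and miR-125a-5p (-0.47), miR-200a (-0.85), miR-200b (-0.81) and miR-221 (-0.86) were lower. Against 2-acetylaminofluorene, let-7d (0.51), let-7f (0.47), miR-103 (0.28), miR-107 (0.34), miR-23b (0.31), miR-352 (0.59), miR-365 (0.49), miR-375 (0.83) and miR-96 (0.95) were higher and miR-199a-5p (-0.66), miR-200a (-1.01), miR-200b (-0.83), miR-34a (-3.03) and miR-429 (-0.50) were lower. miR-429 was at the floor in all Monuron livers and miR-375 in all Methapyrilene HCl livers, so these folds are bounds. miR-375 was also at or near the floor with 2-acetylaminofluorene. With slide as a fixed block these missed the threshold: miR-34a (narrowly), miR-497, miR-125a-5p, miR-200a and miR-200b against Chlorendic Acid (limma adjusted p up to 0.198), and miR-103, miR-23b and miR-199a-5p against 2-acetylaminofluorene (up to 0.0890). Without Monuron replicate 3, let-7f, miR-103, miR-107, miR-23b and miR-199a-5p missed it against 2-acetylaminofluorene (up to 0.157).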

How the results depend on the processing

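miR-34a and miR-96 were called under all 25 alternatives run (differences 0.78 to 2.39 and 0.20 to 0.93). miR-375 was called under 24 of 25, with differences of 0.19 to 1.14, the exception being the authors' deposited table, where the difference was 1.14 (limma adjusted p = 0.173). miR-99a was called under 23 of 26; without Monuron replicate 3, with slide as a fixed block and with only the compared diets it missed the threshold. miR-103 was called under 12 of 26, with adjusted p up to 0.808. miR-193 passed under 5 alternatives, miR-182 under 3 and miR-497 under 2, including normexp, where all 3 passed. The causes were not tested.

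The count of 5 was 3 to 6 with single arrays or Monuron replicate 3 and control replicate 1 left out, the 3 coming without Monuron replicate 3. It was 1 over the 80 miRNAs detected on all arrays, 3 with slide as a fixed block and 3 with only the compared diets. Against Methapyrilene HCl, 2 became 5 with quantile normalization, 0 over miRNAs detected on all arrays (limma, 5 at an unadjusted p under 0.05) and 1 with only those diets. Against Chlorendic Acid, 17 became 28 without Monuron replicate 3, 5 over miRNAs detected on all arrays, 11 with slide as a block and 1 with only those diets; quantile normalization split 21 calls as 6 higher and 15 lower, against 8 and 9. Against 2-acetylaminofluorene, 20 became 40 with scaling over all probes, 9 over miRNAs detected on all arrays and 7 with only those diets. The filter that keeps miRNAs detected on all arrays leaves out miR-34a, miR-375 and miR-96.

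The replicate block gave 5, 2, 15 and 18 calls in the 4 comparisons. Same-numbered Monuron and control arrays correlated at -0.20, 0.35, -0.26 and -0.33, and arrays of other numbers at -0.44 to 0.31. So few values cannot settle whether the numbers carry a meaning, and no pairing was used.

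Of 59 named miRNAs followed through the alternatives, the sign turned under some alternative for 20, none of them called. Scaling over all probes gave miR-122 -0.0690, miR-223 -0.0622, miR-26b -0.0664, miR-30c -0.0324; normexp miR-223 -0.00430, miR-29b 0.0157, miR-30a -0.0435, miR-30c -0.0212; quantile normalization miR-223 -0.00353, miR-30a -0.0633, miR-30c -0.0309; the mean of probes miR-142-3p 0.0248, miR-143 0.0945, miR-26b -0.00381. Total gene signal gave miR-122 -0.0117, miR-143 0.0128, miR-16 -0.0145, miR-223 -0.0759, miR-26b -0.0798, miR-29c -0.0249, miR-30c -0.0358, and the authors' deposited table miR-122 -0.0349, miR-16 -0.0378, miR-223 -0.0991, miR-26b -0.10, miR-29c -0.0482, miR-30c -0.0591. Slide as a fixed block gave let-7c 0.0124, miR-126* 0.00270, miR-142-3p 0.0217, miR-143 0.0799, miR-199a-5p 0.11, miR-29b 0.19. With arrays left out the ranges were let-7c -0.0913 to 0.0186, miR-101a -0.37 to 0.0338, miR-122 -0.0704 to 0.0950, miR-126* -0.25 to 0.12, miR-142-3p -0.25 to 0.38, miR-143 -0.0816 to 0.0275, miR-199a-5p -0.21 to 0.15, miR-19b -0.39 to 0.0852, miR-200a -0.0316 to 0.28, miR-223 -0.0412 to 0.0678, miR-24 -0.00450 to 0.15, miR-26a -0.00524 to 0.17, miR-26b -0.0634 to 0.0669, miR-27b -0.0741 to 0.26, miR-29b -0.25 to 0.36, miR-29c -0.0740 to 0.23, miR-30a -0.0986 to 0.17, miR-30c -0.0441 to 0.18, miR-92a -0.19 to 0.26.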

Other observations

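A few miRNAs outside the 97 were detected in 1 of the 2 diets alone. let-7b* and miR-1* were detected in 2 Monuron livers and no control liver, and let-7d* in 1 and none. miR-181d and miR-338 were detected in no Monuron liver and in 1 control liver. Signal this near the floor limits what can be compared: 6 of the 97 were not detected on every control array and 8 were missing on Monuron replicate 3, and no fold is given for miRNAs at the floor in both diets.

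Genomic neighbours among the 97 are given as values. miR-25, miR-93 and miR-106b, which lie within chr12:22156652-22157123 on GRCr8, had differences of 0.35, 0.23 and -0.05. miR-497 and miR-195 at chr10:55450172-55450529 had -0.25 and -0.11. None of these miRNAs was called.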
